A study of Ursus arctos with 12 samples.

Results

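The genes described here are 10 members of the machinery that hydroxylates, folds and trims collagen: P4HA1, P4HA2, P4HB, PLOD1, PLOD2, PLOD3, SERPINH1, PCOLCE, CRTAP and FKBP10. They were taken by symbol from the 30249 genes of the count table, which held all 10 of 10. RNA came from the vastus lateralis, a thigh muscle, of 6 free-ranging brown bears (Ursus arctos) aged 2 to 3 years, with no genotype or treatment assigned. Each bear gave a biopsy in winter (February, during hibernation) and another in summer (June, in the active period) of the same year, which made 12 libraries, 6 per season. The groups therefore differ in season and in all that goes with it, such as fasting and inactivity. A biopsy holds fibres together with the cells between them, so fewer cells of a type and less RNA per cell cannot be told apart.

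Fibrous collagen is made as procollagen in the endoplasmic reticulum. Prolyl hydroxylases add the hydroxyl groups that keep the triple helix stable at body temperature, and lysyl hydroxylases make the hydroxylysine used for crosslinks and for attaching sugars. Chaperones and prolyl isomerases hold and fold the chains, and after secretion proteinases cut off the propeptides so that fibrils can form. In skeletal muscle most fibrillar collagen is made by the fibroblast-type cells of the connective tissue around the fibres.

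Of the 10 genes, 8 were lower in winter, 1 was higher and 1 was not called, at an adjusted p below 0.05 in edgeR's quasi-likelihood test with the bear as a block. The same test called 40.8% of all 17290 genes tested, 21.2% lower and 19.6% higher. The median log2 fold change of the 10 was −1.41, beside −0.0054 over all genes tested. The 8 lower genes were PCOLCE, SERPINH1, PLOD1, FKBP10, PLOD2, P4HA2, PLOD3 and CRTAP, and each was lower in 6 of 6 bears, as were 19% of all genes tested. For 7 of them, all but FKBP10, every winter library lay below every summer library, which held for 8.21% of all genes tested (17.3% did not overlap in either direction). With stricter limits (adjusted p under 0.01 with winter over summer more than 1.3 or less than 0.77), 8 were again lower and 1 higher, where 25.7% of all genes were called. P4HB rose and P4HA1 was not called. The share of a library that the 10 genes held was 0.0381 to 0.0609% in summer against 0.0277 to 0.0366% in winter. P4HB alone made up 24.3 to 35.3% of these reads in summer and 55.2 to 64.1% in winter. Levels below are CPM, that is reads scaled to library size with edgeR's TMM factors, which compare a gene between libraries but not one gene with another, since they are not divided by length.

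Prolyl 4-hydroxylase is a tetramer of catalytic alpha subunits, encoded by P4HA1, P4HA2 or P4HA3, and of the beta subunit P4HB. P4HA1, the major alpha subunit in most tissues, ran from 28.0 to 49.6 CPM in summer (median 39.5) and from 30.7 to 36.6 CPM in winter (median 34.6). The seasons overlapped fully, and the winter libraries were spread more narrowly than the summer ones. The log2 fold change was −0.15 (95% interval −0.44 to 0.14, adjusted p = 0.389, edgeR), with P4HA1 lower in 4 bears and higher in the other 2. Bears 1316 and 1509, which had the lowest summer levels, were the ones in which it was higher in winter.

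P4HA2, the second alpha subunit, lay between 17.1 and 31.9 CPM in summer (median 28.8) and between 7.76 and 13.4 CPM in winter (median 10.1). The seasons did not overlap. In edgeR this was a log2 fold change of −1.35 (SE, the standard error of the fit, 0.18, adjusted p = 0.000228, edgeR), and single bears ranged from −1.91 in bear 1305 to −0.68 in bear 1512, whose summer level was the lowest.

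P4HB encodes protein disulfide isomerase, which serves as the beta subunit and, on its own, forms and rearranges disulfide bonds in secreted proteins of every kind. It was at 111.6 to 151.2 CPM in summer (median 140.1) and at 148.1 to 227.6 CPM in winter (median 193.5). The ranges overlapped through bear 1509 alone, whose summer library was the highest of its season and whose winter library was the lowest. P4HB rose by 0.47 on the log2 scale (SE 0.12, adjusted p = 0.00873, edgeR), a 1.39-fold change, and was higher in 5 of 6 bears. Without bear 1509 the log2 fold change was 0.58. With any other bear left out it was 0.43 to 0.49, and with library totals 0.39.

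**Figure D1:**
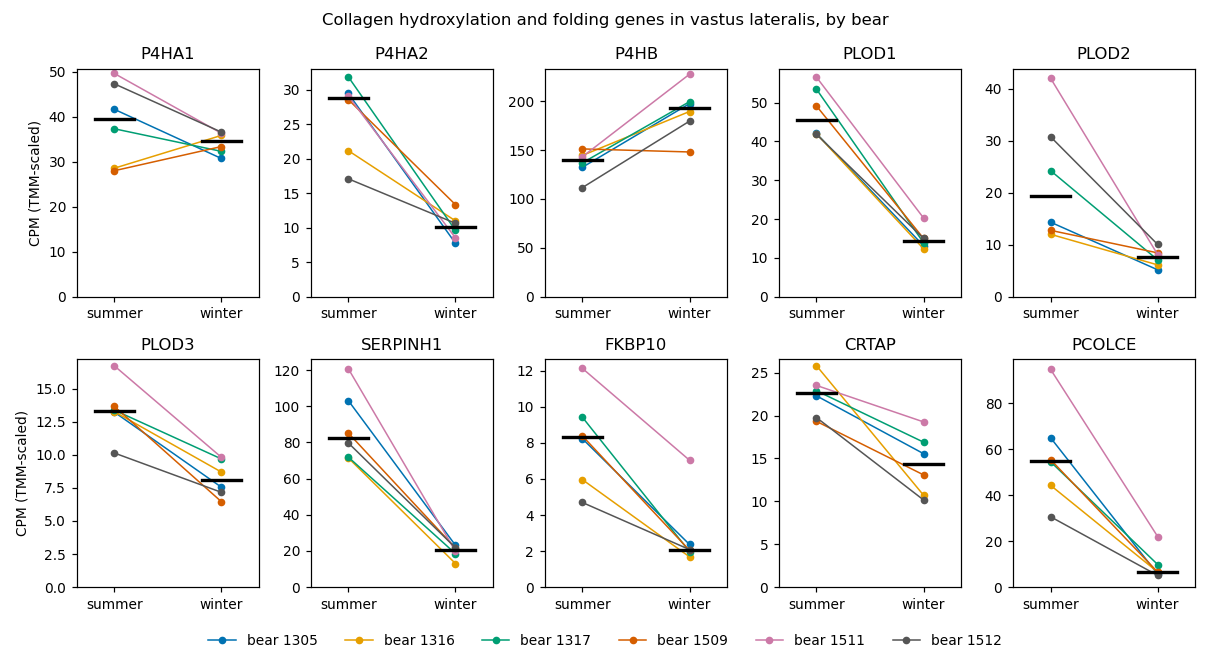
Levels of the 10 genes in CPM (vertical axes, from 0) in the summer and winter library of each of 6 bears (points joined by bear, black bars for season medians). P4HB is the only gene with a higher winter median, 193.5 against 140.1 CPM, and P4HA1, at 34.6 against 39.5 CPM, is the gene that was not called.

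All 3 lysyl hydroxylase genes fell, each in 6 of 6 bears. PLOD1, which hydroxylates lysines of the helical part of the chains, had 41.8 to 56.5 CPM in summer (median 45.6) and 12.3 to 20.3 CPM in winter (median 14.5). Its change was also the most even of the 10 between bears, from −1.94 to −1.47 on the log2 scale. The fitted log2 fold change was −1.67 (SE 0.11, adjusted p = 6.11e-06, edgeR), which is 3.19-fold lower in winter.

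PLOD2, which acts on the telopeptide lysines that go into the stable crosslinks of stiff tissue, spread widely in summer. It ran from 12.02 CPM in bear 1316 to 42.1 CPM in bear 1511 (median 19.3), a 3.5-fold range. In winter it lay between 5.18 and 10.1 CPM (median 7.61), so the bears were closer to each other than in summer and all were below the lowest summer library. Winter was at −1.47 on the log2 scale relative to summer (SE 0.20, adjusted p = 0.000334, edgeR), with single bears from −2.36 in bear 1511 to −0.59 in bear 1509.

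PLOD3 encodes an enzyme that hydroxylates lysines and also adds galactose and glucose to them. It had the smallest fitted change of the family, from 10.1 to 16.7 CPM in summer (median 13.3) to 6.46 to 9.81 CPM in winter (median 8.12), again without overlap. This gave −0.70 on the log2 scale (SE 0.12, adjusted p = 0.00136, edgeR).

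Among the chaperones, SERPINH1 (HSP47), which binds folded procollagen and travels with it out of the endoplasmic reticulum, had the largest fitted change. It stood at 71.4 to 120.7 CPM in summer (median 82.4) and 13.1 to 23.1 CPM in winter (median 20.8), so that the lowest summer library was far above the highest winter one. It fell by 2.17 on the log2 scale (SE 0.13, adjusted p = 5.47e-06, edgeR), a level 4.49-fold lower, and single bears lay between −2.59 and −1.87.

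FKBP10 (FKBP65) is a prolyl isomerase of the endoplasmic reticulum that works with lysyl hydroxylase 2, the product of PLOD2. It had the fewest reads of the 10, 35 to 304 per library. Summer libraries ran from 4.70 to 12.1 CPM (median 8.31), and winter libraries from 1.68 to 7.04 CPM (median 2.06). The seasons overlapped because bear 1511 was high in both, at 12.1 and 7.04 CPM, while the other 5 winter libraries were at 1.68 to 2.37 CPM. FKBP10 fell by 1.62 on the log2 scale (SE 0.21, adjusted p = 0.000217, edgeR), and without bear 1511 it fell by 1.81.

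CRTAP is a non-enzymatic subunit of the complex, with P3H1 and the cyclophilin PPIB, that hydroxylates single prolines at the third carbon and helps the helix to fold. It was at 19.3 to 25.8 CPM in summer (median 22.6) and 10.2 to 19.3 CPM in winter (median 14.3). The groups did not overlap, but only just, since the lowest summer and the highest winter library both round to 19.3 CPM. On the log2 scale CRTAP fell by 0.67 (SE 0.14, adjusted p = 0.00345, edgeR), with single bears from −1.26 in bear 1316 to −0.29 in bear 1511.

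PCOLCE acts outside the cell, where it speeds the removal of the C-propeptide of procollagen by BMP1. Its fitted change was the largest of the 10. In summer it ran from 30.6 to 94.8 CPM (median 55.04), and in winter from 5.11 to 22.02 CPM (median 6.58). Bear 1511 was the highest in both seasons, and the other 5 winter libraries were at 5.11 to 9.85 CPM. PCOLCE fell by 2.74 on the log2 scale (SE 0.18, adjusted p = 6.6e-06, edgeR), or 6.69-fold lower, with single bears from −3.50 to −2.10.

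**Figure D2:**
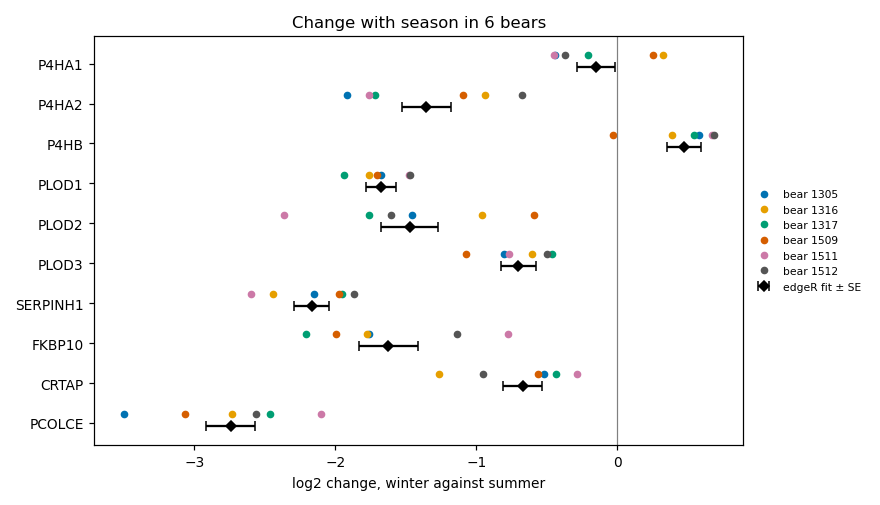
Log2 change from summer to winter (horizontal axis) for the 10 genes, with a coloured point for each bear and a black diamond with its SE for the edgeR fit. The points of 8 genes all lie below 0, those of P4HB lie above 0 in 5 of 6 bears, and those of P4HA1 fall on both sides.

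Bear 1511 had the highest summer level for 7 of the 10 genes and the highest winter level for 6, whereas bear 1512 had the lowest summer level for 6. The markers of tendon cells TNMD, SCX and MKX were also high in the libraries of bear 1511. Their summed level was 74.7 CPM there in summer, against 1.58 to 45.6 CPM in the other bears, and 27.9 CPM in winter, against 0.21 to 2.77 CPM. The summer value of 45.6 CPM was that of bear 1512, which had the lowest summer level for 6 of the 10 genes. Their part in the levels of FKBP10 and PCOLCE was not tested. Without bear 1511 the log2 fold change of PCOLCE was −2.87, and 8 genes were called lower and 1 higher, as with all bears.

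To ask whether members of a family changed alike, the reads of 2 genes were compared within each bear, where library size and gene length cancel. For each of 6 pairs the 6 bears gave a two-sided exact permutation test that flips the sign of each bear's difference, for which 0.03125 is the smallest p. The change of P4HA1 minus that of P4HA2 was 1.202 ± 0.448 on the log2 scale (SD, n = 6 bears, exact p = 0.03125, adjusted 0.0625), so P4HA2 had the more negative change, in 6 of 6 bears. Reads of P4HA2 were accordingly 26.5 to 50.5% of all P4HA1 and P4HA2 reads in summer (median 42.0%) and 19.0 to 28.6% in winter (median 22.7%). P4HA2 changed by −1.82 ± 0.64 relative to P4HB (SD, n = 6 bears, exact p = 0.03125, adjusted 0.0625), and P4HA1 by −0.62 ± 0.59 (exact p = 0.0938, adjusted 0.113). The number of P4HB reads for each read of P4HA1 and P4HA2 together was 1.73 to 2.91 in summer and 3.17 to 5.13 in winter, so the seasons did not overlap.

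Among the lysyl hydroxylases, PLOD1 changed by −0.97 ± 0.31 relative to PLOD3 (SD, n = 6 bears, exact p = 0.03125, adjusted 0.0625), again in 6 of 6 bears. PLOD3 thereby went from 12.2 to 19.7% of the reads of the family in summer to 21.6 to 32.0% in winter. The change of PLOD2 differed from that of PLOD3 by −0.76 ± 0.75 (exact p = 0.0938, adjusted 0.113) and from that of PLOD1 by less than the spread between bears (PLOD1 minus PLOD2, −0.21 ± 0.70, exact p = 0.406, adjusted 0.406). For this last pair single bears ran from −1.11 to 0.88. No pair passed 0.05 after adjustment over the 6 pairs, which 3 pairs at the smallest possible p cannot reach.

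**Figure D3:**
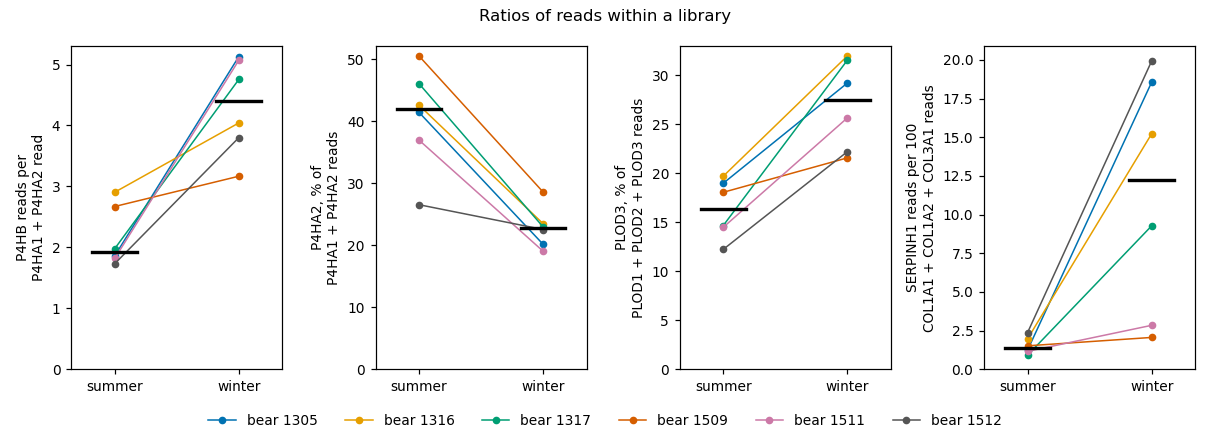
Ratios of reads within a library for each of 6 bears in summer and winter (points joined by bear, black bars for medians, axes from 0). P4HB reads per P4HA1 and P4HA2 read and the share of PLOD3 are higher in every winter library than in every summer library, and SERPINH1 reads per 100 fibrillar collagen reads are higher in winter in each bear.

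The 10 genes were next set against the summed reads of the fibrillar chains COL1A1, COL1A2 and COL3A1. These were at 3356 to 10362 CPM in summer and fell to 85.8 to 1049 CPM in winter, a mean change of −4.67 on the log2 scale. All 10 genes changed less than this, or in the other direction for P4HB. The difference was smallest for PCOLCE, at 1.93 ± 1.31 on the log2 scale (SD, n = 6 bears, exact permutation p = 0.0625, adjusted 0.0625), where bear 1509 went the other way at −0.65. For the other 9 it ranged from 2.50 ± 1.33 for SERPINH1 to 5.14 ± 1.503 for P4HB and was positive in 6 of 6 bears. The exact p was 0.03125 each, and 0.0347 after adjustment over the 10 genes. These values hold for the 3 chains only, which were at −5.17 (COL1A1), −4.13 (COL1A2) and −5.08 (COL3A1). Because these chains fell so far, a gene with no seasonal change also gives a large positive difference. P4HA1, which was not called, gave 4.52, and the median log2 fold change over all genes tested was −0.0054. The test therefore mainly restates the fall of the chains and does not set the 10 genes apart from other genes. The median over the 38 collagen chains tested was −2.10, beside −2.17 for SERPINH1 and −2.74 for PCOLCE. Differences from the other chains were not tested. For every 100 fibrillar collagen reads there were 0.914 to 2.38 of SERPINH1 in summer and 2.06 to 19.9 in winter. The seasons overlapped, since the winter library of bear 1509 lay within the summer range at 2.06. That of bear 1511 was above it at 2.85, and the other 4 lay at 9.28 to 19.9. In the winter libraries of bears 1509 and 1511 the fibrillar chains were highest for winter, at 1049 and 699.7 CPM against 85.8 to 199.7 CPM, while SERPINH1 was not.

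The other genes that modify and fold collagen changed mostly in the same direction. Of 13 tested, edgeR called 9 lower and 0 higher. Nor was any higher in DESeq2 (0) or by an unadjusted p under 0.05 (0). The median log2 fold change was −0.92. The third alpha subunit P4HA3, with 0 to 526 reads per library, stood at −3.96 (SE 0.71, adjusted p = 0.00151), lower in 5 of 6 bears. The collagen galactosyltransferases COLGALT1 and COLGALT2, which add the sugar to hydroxylysine, were at −0.92 and −1.92, and the isomerases FKBP7, FKBP9 and FKBP14 at −1.41, −0.66 and −1.31. Among the prolyl 3-hydroxylase genes, P3H3 fell by 1.77 and P3H4, a non-enzymatic member that assists lysyl hydroxylation, fell by 1.36. P3H1, the enzyme of the complex that holds CRTAP, was at −0.54 (adjusted p = 0.0169, and 0.0527 without bear 1317), and P3H2 at −0.59 (adjusted p = 0.273). PPIB, the cyclophilin of that complex, was at 67.5 to 106.6 CPM in summer and 50.8 to 110.1 CPM in winter, which left it at 0.01 on the log2 scale (SE 0.14, adjusted p = 0.962), and its sign turned under some settings. The channel gene TMEM38B (−0.33, adjusted p = 0.0564) and the zinc transporter gene SLC39A13 (−0.23, adjusted p = 0.358) were not called, but TMEM38B was called with library totals (adjusted p = 0.0493) and without bear 1509 (adjusted p = 0.0315).

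For procollagen export and propeptide cleavage, 5 of 13 genes tested were lower and 1 was higher (2 without bear 1316, 1317 or 1509), with a median log2 fold change of −0.25. BMP1, the C-proteinase that PCOLCE assists, went from 14.3 to 27.9 CPM in summer to 2.38 to 7.52 CPM in winter. Its log2 fold change of −2.44 (SE 0.16, adjusted p = 7.99e-06) stood beside −2.74 for PCOLCE. The N-proteinase genes diverged. ADAMTS2 fell from 45.2 to 121.1 CPM to 1.56 to 16.7 CPM (log2 fold change −4.22, SE 0.45, adjusted p = 8.38e-05). ADAMTS3, a related proteinase that also takes part in the activation of VEGFC, rose from 1.05 to 2.62 CPM to 4.73 to 9.07 CPM (log2 fold change 1.83, SE 0.27, adjusted p = 0.000459), in 6 of 6 bears and without overlap. ADAMTS14, with 14 to 76 reads per library, was at 0.88 (adjusted p = 0.0532). CREB3L1, a transcription factor that activates collagen secretion genes, fell by 3.59 (SE 0.41, adjusted p = 0.000118) from 2.90 to 5.38 CPM to 0.0651 to 0.883 CPM.

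Of the vesicle coat genes in this group, SEC24D fell by 1.198 and SEC23A fell by 0.41 (adjusted p = 0.000253 and 0.0144). MIA3 (TANGO1), which loads procollagen into these vesicles, was at 0.06 (adjusted p = 0.715), with its sign turned by 2 alternatives, and its partner MIA2 at 0.25 (adjusted p = 0.248). KLHL12, which enlarges the coat, was at 0.25 (adjusted p = 0.105, and 0.0254 without bear 1317), and TFG at −0.25 (adjusted p = 0.1). The remaining proteinase gene TLL2 was at 0.57 (adjusted p = 0.243). PCOLCE2, the paralog of PCOLCE, ran from 7.39 to 20.3 CPM in summer and from 1.69 to 26.7 CPM in winter, with a log2 fold change of −0.93 (adjusted p = 0.159). Without bear 1511 it was −1.44 (adjusted p = 0.0137).

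**Figure D4:**
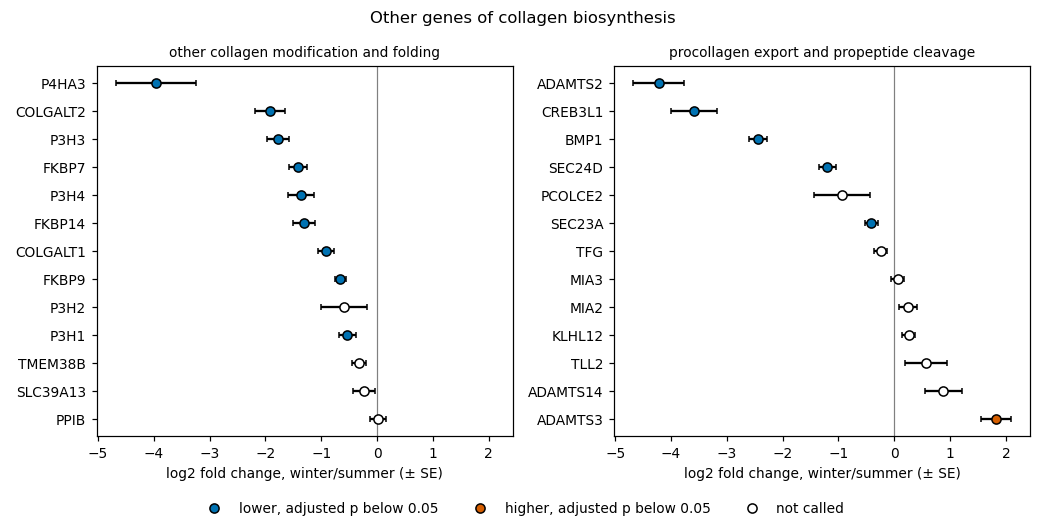
Log2 fold changes from summer to winter (horizontal axes, error bars for the SE of the edgeR fit, n = 6 bears) of 13 other genes of collagen modification and folding and 13 genes of procollagen export and propeptide cleavage. Blue marks genes called lower (9 and 5), orange the one called higher, ADAMTS3, and white those not called.

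The collagen chains themselves had 27 genes lower and 1 higher (COL6A5, with 47 reads in all) of 38 tested, with a median log2 fold change of −2.10. The higher count was 0 with filterByExpr or without bear 1316, and 2 without bear 1509. General chaperones and oxidoreductases of the endoplasmic reticulum, which serve all secreted proteins, had 7 lower and 1 higher of 15, with a median of −0.34. Beside the rise of P4HB, the other protein disulfide isomerase genes PDIA3 and PDIA4 fell by 0.50 and 0.93 (adjusted p = 0.00258 and 0.000186, edgeR), and PDIA6 was at −0.23 (adjusted p = 0.153). The higher gene, CANX (calnexin), was at 0.34 (adjusted p = 0.0214) and was not called with library totals or without bear 1305, 1316 or 1512. P4HA1, P4HA2, PLOD1 and PLOD2 are known to be induced by hypoxia. Of 11 other hypoxia-responsive genes tested, 5 were higher and 3 lower, with a median of 0.28. Among them were KDM3A at 0.81, VEGFA at −1.199 and PGK1 at −1.36 (adjusted p = 0.000522, 5.03e-05 and 0.0002, edgeR). The summed level of the list was lower in winter in 6 of 6 bears, at 1453 to 1846 CPM in summer and 808.5 to 1133 CPM in winter. PGK1 had the most reads in that sum.

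The fibre markers ACTA1, CKM, TTN and 7 others summed to 114634 to 193635 CPM in summer and 116540 to 154400 CPM in winter, as the muscle label implies, with 5 lower and 1 higher of 10. Fibroblast markers summed to 529.9 to 707.0 CPM in summer and 453.0 to 620.1 CPM in winter. Of 11 tested 7 were lower, such as FAP, which fell by 2.14, and THY1, which fell by 1.87. PRRX1 was higher at 0.85, with a mean of 7.58 log2 CPM in summer and 8.43 in winter. It had the most reads of the list (73814), so its rise offset part of the falls in the sum. PDGFRA was at −0.46 (adjusted p = 0.0778), and TCF21 had 3 reads in all. Endothelial markers (5 lower and 2 higher of 8, and 1 higher without bear 1305, 1317, 1511 or 1512) went from 649.2 to 974.9 CPM to 460.0 to 534.5 CPM. Smooth muscle and pericyte markers (4 lower of 6, and 2 with no replicate block or without bear 1316, 1509 or 1512) went from 478.1 to 598.6 CPM to 251.7 to 345.3 CPM, and macrophage markers (6 lower of 8) from 105.5 to 155.7 CPM to 44.6 to 82.8 CPM. Adipocyte markers (1 lower of 5) were at 297.4 to 1376 CPM in summer and 216.0 to 459.3 CPM in winter. A further 1 was higher without bear 1305 or 1316, with no replicate block in edgeR, and in DESeq2 with or without the block. The largest rise among these 5 was that of LEP, at 2.54 (adjusted p = 0.0629, edgeR). LEP had only 52 reads in all and was higher in 4 bears and lower in 2. Tendon markers were at 1.58 to 74.7 CPM in summer and 0.21 to 27.9 CPM in winter, with 2 lower of 3. This count was 0 with no replicate block in edgeR or DESeq2, and 1 without bear 1317 or 1512. No marker was at 0 in all 12 libraries. The part of these cell types in the changes of the 10 genes was not tested.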

How the data were processed

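The authors prepared stranded poly-A libraries, sequenced single reads, aligned them to the brown bear assembly ASM358476v1 and counted reads per gene on the opposite strand, with TopHat2 2.1.1 and featureCounts 1.6.2 by the submitters' processing notes. The deposited values are raw read counts per gene. Libraries held 16742406 to 32140160 reads in winter and 20191068 to 27283155 in summer. Sequencing lanes are not given in the labels, so a lane effect could not be examined. The lowest chi-square per gene between libraries of a season was 39.1, where counting noise gives 1, so no library copied another.

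A minimum of 30 reads summed over the 12 libraries kept 17290 genes, all 10 members among them. Counts were scaled by TMM and fitted in edgeR 4.0.16 (R 4.3.3) with glmQLFit and glmQLFTest, with the bear as a replicate block and season as terms, since each animal gave both libraries. Residuals about the season means had correlations of 0.0903 to 0.344 between the libraries of a bear (median 0.237). Between different bears they ran from −0.214 to 0.142 (median −0.0634), so the ranges overlapped. A gene was called at an adjusted p (Benjamini-Hochberg over all genes tested) below 0.05. The standard error is the log2 fold change over the root of the F statistic. Paired differences between genes used log2 CPM with a prior count of 2. The alternatives were edgeR with no replicate block, RLE, library totals, no filter, filterByExpr, DESeq2 1.42.0 with and without the block, limma 3.58.1 voom, each bear left out, a prior count of 0.5, and an adjusted p below 0.01 with a fold change above 1.3 or below 0.77. The fits were tested on simulated data. All members and every gene of the other pathway lists were named. Of the remaining lists only some extremes and some markers were named. Genes that a count or comparison turned on were added to these after their values were seen. The members and lists were chosen with earlier results of these data known. TLL1 and LDHA, which were on the lists, were not analysed here, nor were promoter or protein sequences.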

Additional observations from a re-analysis of the deposited data

Results flagged for a closer look

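FKBP10 in the winter library of bear 1511 stood apart from the other winter libraries. It was at 2.83 log2 CPM, where the other 5 lay between 0.82 and 1.295, so that its gap to the nearest was 0.764 of the range of the group, above Dixon's 95% critical value for 6 libraries. This was 1 of the 20 groups examined (10 genes in 2 seasons), and chance alone gives about 1 in 20.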

How the results depend on the processing

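In every alternative, 8 of the 10 genes were called lower, 1 higher and 1 was not called, and each of the 10 kept its direction and its side of the threshold in all 14 other fits. The highest adjusted p among these fits was 0.0368 for P4HB, without bear 1305, and 0.0158 for CRTAP. With no replicate block, edgeR called 3445 of all genes lower and 3386 higher, beside 3663 and 3392 in the paired fit, and changed no call among the 10 genes or the other pathway genes. With an adjusted p below 0.01 and the limits on the fold change, 2325 were lower and 2115 higher. Of the genes of procollagen export and propeptide cleavage, 2 were higher without the filter, with filterByExpr, in DESeq2 without the block and in limma voom, where ADAMTS14 joined ADAMTS3, and 1 to 2 with each bear left out, where the second gene was ADAMTS14 without bear 1316 or 1509 and KLHL12 without bear 1317. PPIB, at 0.01, turned to −0.068 with library totals, −0.0030 without the filter and −0.13 to 0.12 over the fits with a bear left out, negative without bear 1317 or 1512 (−0.0097). MIA3, at 0.06, turned to −0.018 with library totals and had −0.039 to 0.14 with a bear left out, negative without bear 1316. The cause was not tested. The 16 differences between genes kept their direction under each alternative, where leaving out a bear gave a value with no test because 5 bears cannot reach an exact p below 0.05. Standard errors and intervals are for the mean change over these bears and do not give the range of single bears. With 1 biopsy per bear and season, the spread between bears cannot be separated from the spread within a muscle.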

Other observations

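Over the 12 libraries, with each gene's log2 CPM centred on its own mean, the named genes nearest to SERPINH1 were IGFBP7, at a root mean square difference of 0.26, then RAB7B at 0.28, CCND2 at 0.29, RHNO1 at 0.34 and HAGH at 0.34. Genes this close by the measure must change with season much as SERPINH1 does. Their log2 fold changes accordingly lay between −2.19 and −1.84. The 12 libraries share 6 animals and the difference between seasons. Among the 10 genes, PLOD3 and CRTAP were nearest to each other at 0.24, as were P4HA2 and PLOD1 at 0.35. The member nearest to SERPINH1 was PLOD1 at 0.37. P4HB was nearest to P4HA1 at 0.45 and farthest from PCOLCE at 1.69.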
